A study of Mus musculus with 12 samples.

Results

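Greb1, Nrip1, Padi1, Ltf and Muc1 are 5 genes whose mRNA is classically raised by estradiol, and their levels are described here in the oviducts of mice with and without estrogen receptor alpha. They were chosen by symbol as 5 of 18194 genes with a probe set of their own on the array, and as 5 of the 1914 genes whose row could be located on all 12 arrays. They were chosen because they differed between these groups, so every contrast below describes the choice and none of them is a test of it. In ESR1KO oviducts 3 of the genes had less mRNA than in WT oviducts, namely Greb1, Nrip1 and Padi1. The other 2, Ltf and Muc1, had more.

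The tissue was the whole oviduct of immature C57BL/6 mice, and each of the 4 groups had 3 Affymetrix Mouse Genome 430 2.0 arrays. The 4 groups were PMSG-treated ESR1KO, ESR1KO, PMSG-treated WT and WT. ESR1KO mice carried 2 deleted copies of Esr1 in every tissue, the deletion having been made in the egg by Cre recombinase under the Zp3 promoter, and were taken with or without the ZP3Cre transgene. WT mice were siblings that carried 1 floxed and 1 deleted copy, with or without ZP3Cre, so they were not mice with 2 intact copies. Untreated oviducts were taken at 23 days of age. The treated mice received 5 IU of PMSG, a gonadotropin that stimulates follicles to grow and to make estradiol, at 23 days of age, and their oviducts were taken 48 h later. Treated mice were therefore 2 days older, and PMSG and age cannot be told apart. Each array held RNA pooled from 3 to 4 mice, and arrays of a group held different mice, so the spread between arrays is that between pools.

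Estradiol binds estrogen receptor alpha, the product of Esr1, and the bound receptor attaches to estrogen response elements in DNA or to other factors already on it, and recruits coactivators or corepressors that change transcription. In the female tract the receptor is found in epithelium, stroma and muscle, and part of its action on epithelial genes passes through neighbouring stromal cells. GREB1 binds the receptor as a cofactor. NRIP1, also called RIP140, is a corepressor of many nuclear receptors. PADI1 converts arginine residues of proteins to citrulline. Lactotransferrin, the product of Ltf, is a secreted iron-binding protein that hinders the growth of bacteria and is a long-standing marker of estrogen action in the mouse uterus. MUC1 is a mucin anchored in the apical membrane of epithelial cells.

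The sequences around the annotated starts of the 5 genes are shown because the receptor can bind response elements near a start, and because the genes fell into 2 directions. They are RefSeq windows on GRCm38.p6, from 250 bases before to 50 bases after the start, read in the direction of the gene. Capitals mark a half-site of the estrogen response element (GGTCA or TGACC) in Greb1, Nrip1 and Ltf, and GC boxes (GGGCGG, either strand) and a TATA box (TATAAA) in Muc1. The Greb1 window is chr12:16800837-16801136 on the minus strand, the Nrip1 window chr16:76373778-76374077 on the minus strand, and the Padi1 window chr4:140845729-140846028 on the minus strand. The Ltf window is chr9:111019042-111019341 on the plus strand, and the Muc1 window chr3:89228806-89229105 on the plus strand.
Greb1: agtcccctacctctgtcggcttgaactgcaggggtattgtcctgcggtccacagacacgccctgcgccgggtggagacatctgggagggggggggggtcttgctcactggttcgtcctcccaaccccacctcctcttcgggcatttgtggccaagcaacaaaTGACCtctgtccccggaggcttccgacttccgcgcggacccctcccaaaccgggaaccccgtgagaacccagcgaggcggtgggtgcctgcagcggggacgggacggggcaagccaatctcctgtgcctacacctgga
Nrip1: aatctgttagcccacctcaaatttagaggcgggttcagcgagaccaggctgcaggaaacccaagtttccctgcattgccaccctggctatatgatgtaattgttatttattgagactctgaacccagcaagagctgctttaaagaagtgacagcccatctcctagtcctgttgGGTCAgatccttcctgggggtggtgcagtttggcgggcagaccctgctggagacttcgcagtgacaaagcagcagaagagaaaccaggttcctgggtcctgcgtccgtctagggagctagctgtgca
Padi1: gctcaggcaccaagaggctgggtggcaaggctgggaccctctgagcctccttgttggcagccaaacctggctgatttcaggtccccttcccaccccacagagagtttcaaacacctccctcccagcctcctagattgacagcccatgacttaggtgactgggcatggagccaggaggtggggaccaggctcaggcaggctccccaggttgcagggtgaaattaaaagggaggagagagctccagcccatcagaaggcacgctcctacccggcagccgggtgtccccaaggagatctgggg
Ltf: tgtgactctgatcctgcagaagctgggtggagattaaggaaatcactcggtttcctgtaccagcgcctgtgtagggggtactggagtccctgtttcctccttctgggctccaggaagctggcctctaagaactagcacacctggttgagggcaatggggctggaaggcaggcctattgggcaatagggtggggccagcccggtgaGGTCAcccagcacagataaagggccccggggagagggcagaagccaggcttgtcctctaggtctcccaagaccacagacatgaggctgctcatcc
Muc1: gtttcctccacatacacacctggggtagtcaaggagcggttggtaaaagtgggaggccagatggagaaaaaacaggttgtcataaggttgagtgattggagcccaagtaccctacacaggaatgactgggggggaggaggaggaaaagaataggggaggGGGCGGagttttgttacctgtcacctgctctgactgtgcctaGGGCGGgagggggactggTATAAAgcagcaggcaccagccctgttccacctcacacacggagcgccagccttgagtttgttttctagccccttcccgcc

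None of these windows, nor a second annotated start of Greb1 or of Nrip1, held the whole element GGTCANNNTGACC, which was searched on both strands and stood in 0.07% of 32851 windows of this length. Counting from the first transcribed base as 1, the half-site began at position -88 in Greb1, -77 in Nrip1 and -45 in Ltf. Neither the Padi1 nor the Muc1 window held a half-site. A half-site stood in 40.5% of all windows, so its presence is common. At position -218 the Nrip1 window also held gttcagcgagacc, which differs from the whole element at no more than 2 of its 10 fixed bases, and 11.1% of all windows held such a near match. Muc1 had GC boxes at positions -91 and -49, a motif found in 35.7% of windows, and a TATA box at -31, found on the gene strand in 8.32%. At the second annotated starts, Nrip1 had GC boxes at -38 and -34 and no half-site, and Greb1 had half-sites at -194 and -85. The half-sites were thus present in 2 of the 3 genes that were lower in ESR1KO oviducts and in 1 of the 2 that were higher. These matches are descriptions of the letters, and binding was not measured.

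All values are log2 expression signals as the authors deposited them, so a difference of 1 is 2-fold. Array medians lay between 5.63 and 5.75, and a group mean under 4 is called near background. Row order limited what could be read. Columns of the untreated ESR1KO arrays follow the probe set names, while the other 9 columns share another order, and correlations between the 2 sets of columns were between -0.15 and -0.12 over all rows, against 0.959 or more within each set. A row was found through the folds in the study's list of changed rows, of which 1997 were held here, used only as a key, and each of the 5 genes had 1 matching row. Genes located in this way are those the study listed as changed, and are no random sample of the array.

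Esr1, the deleted gene, was lower in ESR1KO oviducts but stayed well above background at probe set 1460591_at. Its log2 signal was 10.11, 10.62 and 10.56 in PMSG-treated ESR1KO oviducts, against 12.62, 12.82 and 12.21 in PMSG-treated WT oviducts, a difference of -2.12. Without PMSG it was 10.42, 12.13 and 11.05 in ESR1KO oviducts, against 12.94, 12.92 and 13.05 in WT oviducts, a difference of -1.77. Without ESR1KO replicate 1 that difference was -1.38, without replicate 2 it was -2.23, and without replicate 3 it was -1.69. The groups did not overlap in either comparison. Whether the probes lie in the deleted part was not determined here, so the residual signal says nothing about protein.

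Among the untreated ESR1KO arrays, replicate 2 stood apart in Esr1 and Greb1. It had the highest signal of the 3 arrays in each of the 3 Esr1 probe sets and each of the 4 Greb1 probe sets, which could all be read in this group by name. At the Esr1 probe set 1421244_at it had 6.13, against 3.72 in replicate 1 and 3.67 in replicate 3. Over the 24 located estrogen-induced genes described further on, the highest of the 3 arrays was replicate 1 for 7 genes, replicate 2 for 8 and replicate 3 for 9. Replicate 3 stood apart in cell type markers. It was the highest of the 3 arrays for 7 of 10 markers of secretory epithelium and 10 of 14 markers of ciliated epithelium. For none of 10 smooth muscle, 10 stromal and 9 endothelial markers was it the highest. Muc1 is itself among these secretory markers and was highest in replicate 3, so its own value enters that count. Differences of the 5 genes without PMSG are given with and without these arrays, and the part that such differences between pools played in the results was not tested.

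**Figure D1:**
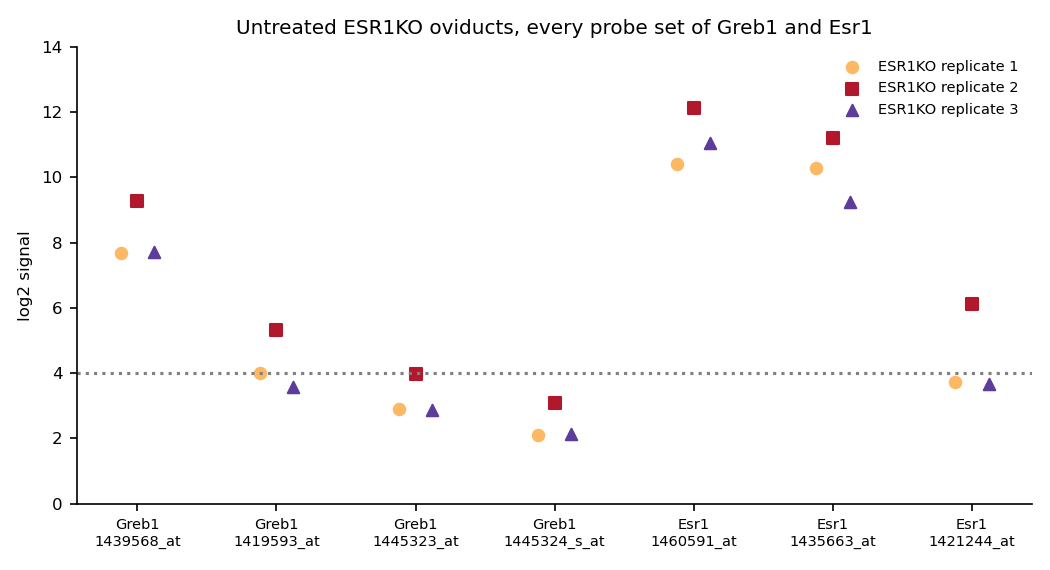
Log2 signal (vertical axis) of every probe set of Greb1 and Esr1 (horizontal axis) on the 3 untreated ESR1KO arrays, with a dotted line at 4, the limit taken as near background. Replicate 2 (squares) is highest at all 7 probe sets, and the means of the Greb1 probe sets range from 2.44 to 8.23.

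Greb1 had the widest range of the 5 genes. At probe set 1445323_at its log2 signal was 2.64, 2.95 and 3.11 in PMSG-treated ESR1KO oviducts and 2.89, 3.97 and 2.87 in ESR1KO oviducts, against 7.38, 7.79 and 8.41 in PMSG-treated WT oviducts and 6.30, 6.47 and 5.64 in WT oviducts. Every ESR1KO array was therefore below the limit of background and every WT array above it. Group means were 2.90 ± 0.24 (SD, n = 3) in PMSG-treated ESR1KO oviducts and 7.86 ± 0.52 in PMSG-treated WT oviducts, a difference of -4.96 (SE 0.33), or 31.1-fold. Without PMSG they were 3.24 ± 0.63 in ESR1KO oviducts and 6.14 ± 0.44 in WT oviducts, a difference of -2.90 (SE 0.44), or 7.44-fold. Since background correction compresses weak signals, these folds are uncertain in size, and the direction rests on gaps of 4.27 and 1.67 between the nearest arrays of the groups. Without ESR1KO replicate 2 the difference without PMSG was -3.26, and without replicate 3 it was -2.71. In order of level the groups ran from PMSG-treated ESR1KO through ESR1KO and WT to PMSG-treated WT, and only the first and second of these overlapped. A second row keyed to Greb1, found in the 9 columns that share an order, had 2.89, 4.04 and 3.08 in PMSG-treated ESR1KO oviducts, against 8.71, 9.43 and 9.92 in PMSG-treated WT oviducts, a difference of -6.01. It was 7.96, 7.65 and 7.13 in WT oviducts without PMSG. This row rests on 1 fold between these groups as its key, so its direction was fixed by the way it was found and supports nothing, and which probe set it is remains unknown. Probe sets of Greb1 differ in level: in untreated ESR1KO oviducts 1439568_at averaged 8.23 and 1445324_s_at 2.44, so near-background values hold for the probe set read and not for all of the gene.

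Nrip1 had the smallest differences of the 3 lower genes. Its log2 signal at probe set 1454295_at was 9.34, 9.40 and 9.34 in PMSG-treated ESR1KO oviducts, against 11.01, 11.39 and 11.48 in PMSG-treated WT oviducts. Means were 9.36 ± 0.04 (SD, n = 3) in the ESR1KO and 11.3 ± 0.25 in the WT oviducts, a difference of -1.93 (SE 0.14), or 3.81-fold. Without PMSG the arrays had 9.86, 10.01 and 9.11 in ESR1KO oviducts, against 10.57, 10.50 and 10.62 in WT oviducts. The groups did not overlap, but the difference of -0.90 (SE 0.28), or 1.87-fold, was under 2-fold, and ESR1KO replicate 3 was the lowest array of all. Leaving out ESR1KO replicate 3 made the difference -0.63, and leaving out replicate 2 made it -1.08. The order of the 4 groups was that of Greb1, and again only the ESR1KO groups overlapped. Nrip1 has 6 probe sets on the array, with means from 2.73 to 11.4 in untreated ESR1KO oviducts, and 1 of them was read in all groups.

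Padi1 has 1 probe set, 1419323_at, and its mRNA was well above background in every group. The log2 signal was 7.72, 7.97 and 8.05 in PMSG-treated ESR1KO oviducts, against 11.00, 12.06 and 11.31 in PMSG-treated WT oviducts. This is a difference of -3.54 (SE 0.33) between means of 7.91 ± 0.17 in the ESR1KO and 11.5 ± 0.55 in the WT oviducts (SD, n = 3), or 11.7-fold. Without PMSG the arrays had 8.001, 8.67 and 8.68 in ESR1KO oviducts, against 9.68, 9.73 and 9.67 in WT oviducts, a difference of -1.25 (SE 0.23), or 2.37-fold. Leaving out ESR1KO replicate 1, the lowest of its group, made it -1.02. It was -1.35 without replicate 2 and -1.36 without replicate 3. The 3 WT arrays lay within 0.06 of each other, and all of them above every ESR1KO array. The order of the groups was once more PMSG-treated ESR1KO, ESR1KO, WT and PMSG-treated WT. The 2 ESR1KO groups overlapped, by 1 array of each.

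Ltf, which estradiol raises in the mouse uterus, was higher in ESR1KO oviducts, and its signal was strong in all 4 groups. At probe set 1450009_at the log2 signal was 14.01, 14.25 and 13.93 in PMSG-treated ESR1KO oviducts, against 12.45, 12.80 and 11.98 in PMSG-treated WT oviducts. The difference was 1.66 (SE 0.25), or 3.15-fold, between means of 14.1 ± 0.17 in the ESR1KO and 12.4 ± 0.41 in the WT oviducts (SD, n = 3). Without PMSG the values were 13.91, 13.82 and 14.51 in ESR1KO oviducts, against 12.43, 13.07 and 12.72 in WT oviducts, a difference of 1.34 (SE 0.29), or 2.54-fold. All 6 ESR1KO arrays lay above all 6 WT arrays. In order of level the groups ran from PMSG-treated WT through WT and PMSG-treated ESR1KO to ESR1KO. Within each genotype the treated and untreated arrays overlapped, which does not show equal levels. In WT oviducts the PMSG difference of Ltf stayed between -0.53 and -0.12 when an array was left out. ESR1KO replicate 3 was the highest array, and without it the difference without PMSG was 1.13, against 1.47 without replicate 2.

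Muc1 was higher in ESR1KO oviducts by more than Ltf when PMSG had been given. At probe set 1449199_at the log2 signal was 10.20, 10.71 and 10.59 in PMSG-treated ESR1KO oviducts, against 8.06, 8.63 and 7.47 in PMSG-treated WT oviducts. Means of 10.5 ± 0.27 in the ESR1KO and 8.06 ± 0.58 in the WT oviducts (SD, n = 3) gave a difference of 2.44 (SE 0.37), or 5.44-fold. Without PMSG it was 10.64, 10.29 and 11.42 in ESR1KO oviducts, against 9.12, 9.17 and 9.45 in WT oviducts, a difference of 1.54 (SE 0.35), or 2.90-fold. No array of ESR1KO oviducts overlapped with WT oviducts in either state. The order of level was PMSG-treated WT, WT, PMSG-treated ESR1KO and ESR1KO, and only the 2 ESR1KO groups overlapped. Compared with Greb1, Nrip1 and Padi1, the genotypes and the 2 WT groups stood in reverse. PMSG-treated ESR1KO was below ESR1KO in all of these genes. ESR1KO replicate 3 was again the highest array, and without it the difference without PMSG was 1.22, against 1.78 without replicate 2. In whole oviducts a change in mRNA per cell cannot be told apart from a change in the number of cells that make it. This holds for each of the 5 genes, lower or higher.

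**Figure D2:**
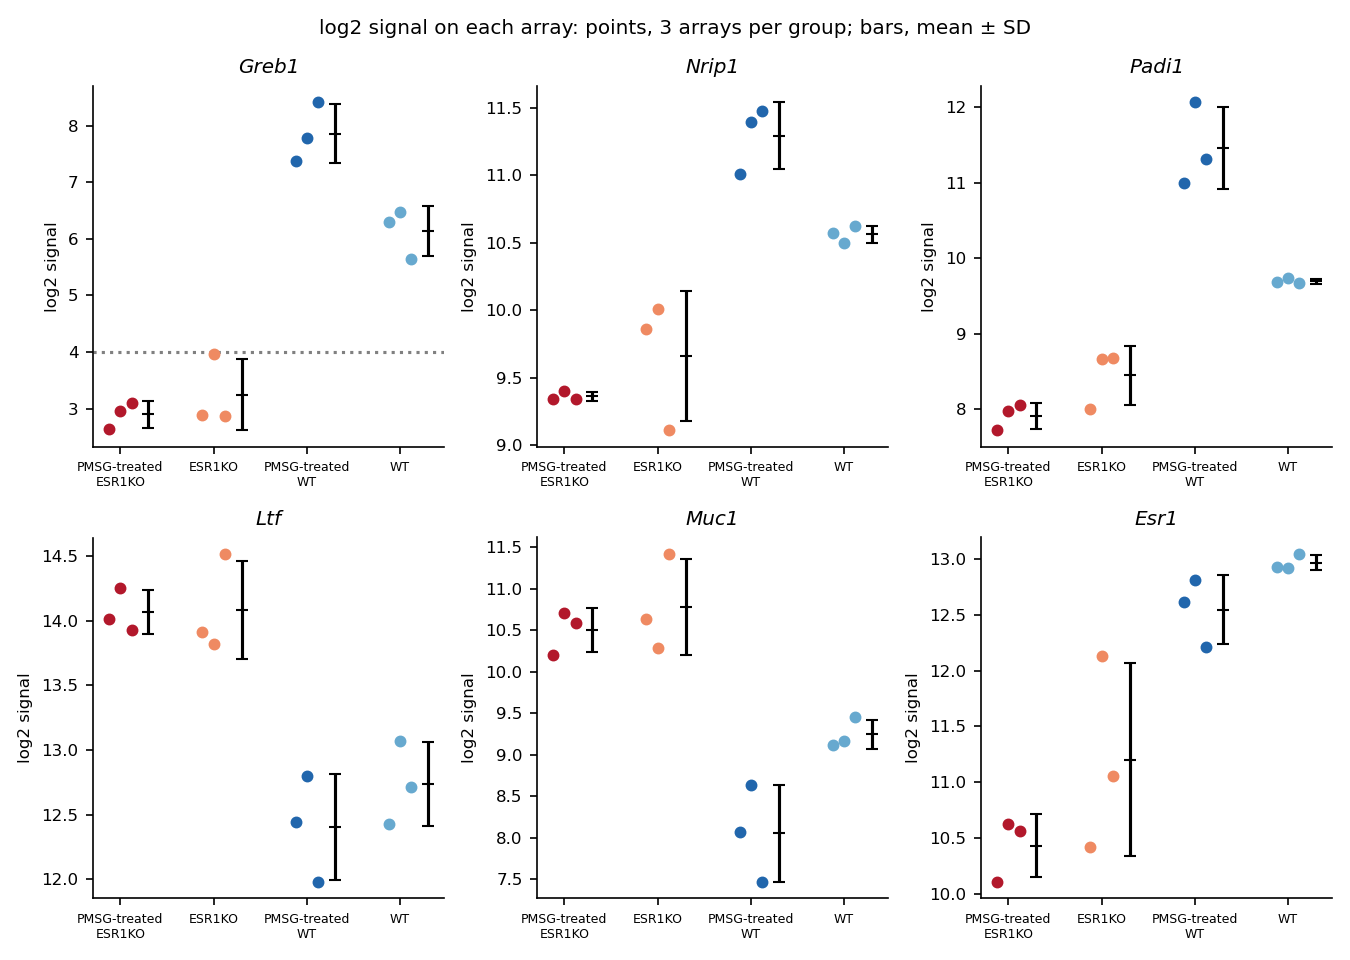
Log2 signal (vertical axis, a separate range in each panel) of the 5 genes and of Esr1 on each array, by group (horizontal axis); points are the 3 arrays of a group, bars their mean ± SD, and the dotted line in the Greb1 panel is 4. Greb1, Nrip1 and Padi1 are lowest in both ESR1KO groups and highest in PMSG-treated WT oviducts, and Ltf and Muc1 are highest in both ESR1KO groups.

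To put the genotype difference with PMSG beside the rest of the array, it was fitted with limma over all 45101 rows, and a row was called at an adjusted p under 0.05 (Benjamini-Hochberg) and at least 2-fold. Of all rows 4.48% were called, 2.76% as higher and 1.72% as lower in PMSG-treated ESR1KO oviducts. All 5 genes were among them, Greb1, Nrip1 and Padi1 as lower and Ltf and Muc1 as higher, which their choice had fixed. From the lowest difference upward, Greb1 stood at rank 33, Padi1 at 103 and Nrip1 at 472. From the highest downward, Muc1 stood at rank 252 and Ltf at 686. The median difference over all rows was 0.01. Without PMSG the comparison could be fitted on the 1997 located rows only, of which 18.1% were called, 9.06% higher and 9.01% lower in ESR1KO oviducts. Here Greb1 was called lower and Ltf higher, while Nrip1, Padi1 and Muc1 were not called, and the groups of all 5 did not overlap. Among the located rows, groups did not overlap in 78.5% without PMSG and in 93.1% with it, so this is common among them. Adjustment for these rows was made as for 45101 tests, which makes each adjusted p an upper bound, so that a gene not called there is not shown to fail the test. Leaving out 1 of the 12 arrays at a time kept Greb1 among the called genes in 12 of 12 fits and Ltf in 6. Ltf was lost without ESR1KO replicate 1 or 3, without any 1 of the 3 WT arrays, or without PMSG-treated ESR1KO replicate 3. Padi1 was called when any 1 of the PMSG-treated WT arrays was left out, and Muc1 without ESR1KO replicate 2 or PMSG-treated WT replicate 2 or 3. The number of these genes called thus ranged from 1 to 4.

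**Figure D3:**
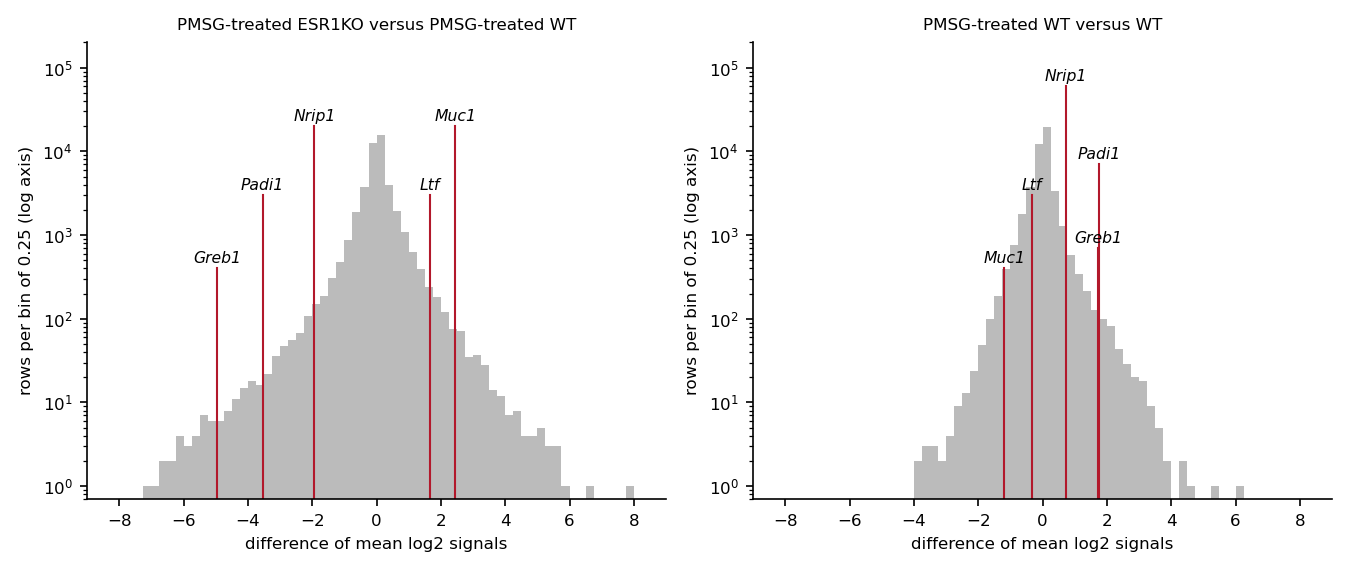
Number of rows (vertical axis, log scale) by the difference of mean log2 signals (horizontal axis, bins of 0.25) over all 45101 rows, for genotype after PMSG (left, PMSG-treated ESR1KO minus PMSG-treated WT) and for PMSG in WT oviducts (right, PMSG-treated WT minus WT). Red lines mark the 5 genes, their heights chosen for legibility: in the left panel Greb1 is at -4.96 and Muc1 at 2.44, and in the right panel Greb1 and Padi1 lie at 1.72 and 1.76.

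The genotype difference was smaller without PMSG than with it for all 5 genes. Without PMSG it was 35.2% of the log2 difference with PMSG for Padi1, 46.8% for Nrip1, 58.4% for Greb1, 63.0% for Muc1 and 81.0% for Ltf. The difference of the 2 differences, with PMSG minus without, was -2.30 for Padi1, -2.06 for Greb1, -1.03 for Nrip1, 0.91 for Muc1 and 0.31 for Ltf. In the limma fit of the located rows 0.651% were called for this interaction (adjusted p under 0.05), and none of the 5 genes was among them. At an unadjusted p under 0.05 there were 3 of the 5, namely Greb1, Nrip1 and Padi1, in limma and as many in the unmoderated two-way model, beside 36.2% of the located rows in each.

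The response to PMSG was compared within each genotype. In WT oviducts Padi1 was higher after PMSG, at 11.5 ± 0.55 in PMSG-treated WT oviducts and 9.69 ± 0.03 in WT oviducts (SD, n = 3), a difference of 1.76 (SE 0.32), or 3.39-fold. Greb1 differed by 1.72 (SE 0.39), or 3.29-fold, and Nrip1 by 0.73 (SE 0.15), or 1.66-fold, with all treated arrays above all untreated ones for each gene. Muc1 went the other way, with a difference of -1.19 (SE 0.35), or 2.28-fold, and no overlap. Ltf differed by -0.33 and its groups overlapped. Over all rows 0.251% were called in this comparison, 0.177% as higher and 0.0732% as lower, and Padi1 was the only gene of the 5 called. Groups did not overlap for 4 of the 5, beside 53% of the located rows. The Padi1 call was lost without any 1 of the 3 WT arrays or of the 3 PMSG-treated ESR1KO arrays, which enter only through the shared estimate of spread. From the highest difference downward Padi1 stood at rank 309, Greb1 at 327 and Nrip1 at 1637, and from the lowest upward Muc1 stood at 468 and Ltf at 5495. Those ranks are read beside a median of 0.01 over all rows. Replicate 3 of the PMSG-treated WT arrays had the highest Greb1 and Nrip1 and the lowest Ltf and Muc1 of its group. Without it the PMSG difference of Muc1 was -0.90 and that of Greb1 1.44.

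In ESR1KO oviducts the treated and untreated arrays overlapped for all 5 genes. Only 21.5% of the located rows did not overlap in this comparison, so overlap is common among them. The differences were -0.53 (SE 0.25) for Padi1, -0.35 (SE 0.39) for Greb1, -0.30 (SE 0.28) for Nrip1, -0.28 (SE 0.37) for Muc1 and -0.02 (SE 0.24) for Ltf. Greb1, Muc1 and Ltf changed sign when an array was left out, with ranges of -0.53 to 0.02, -0.53 to 0.03 and -0.15 to 0.20. Nrip1 and Padi1 kept theirs, at -0.57 to -0.12 and -0.76 to -0.42. With limma 0 of the 5 were called, against 0.1% of the located rows, and 0 had an unadjusted p under 0.05 in limma or in the unmoderated model, beside 17.4% and 17.6% of the located rows. A difference that is not called does not show equal levels, and 3 arrays a group leave an SE of up to 0.39 on these values.

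**Figure D4:**
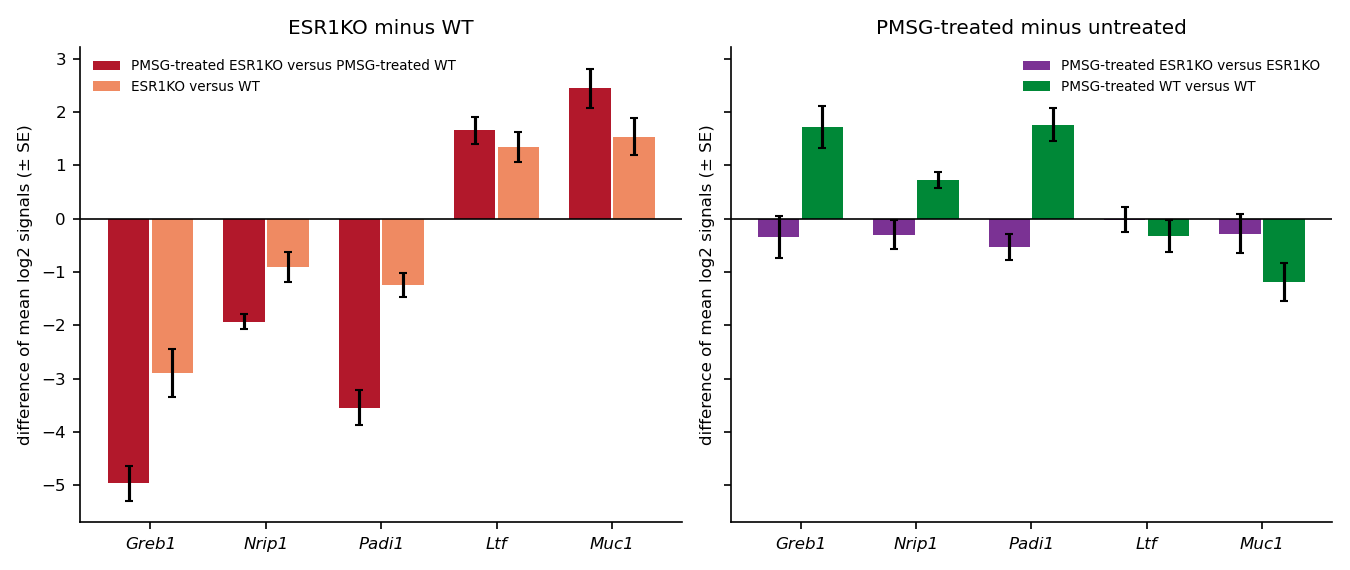
Difference of mean log2 signals (vertical axis, ± SE, n = 3 arrays a group) for the 5 genes (horizontal axis), ESR1KO minus WT with and without PMSG (left) and PMSG-treated minus untreated in each genotype (right). Bars for genotype are longer with PMSG for every gene, as for Greb1 (-4.96 and -2.90), and bars for PMSG in ESR1KO oviducts are all short, at -0.53 or nearer to 0.

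Genes of the located set with the profile most like that of each gene were found from log2 signals centred on each gene's mean over the 12 arrays, by the root mean square difference, among 1664 genes. For Greb1 they were Bcat1 (0.43), which encodes a cytosolic aminotransferase of branched-chain amino acids, Rasd1 (0.44) and Bst2 (0.46). Bcat1 averaged 7.21 in PMSG-treated ESR1KO and 7.71 in ESR1KO oviducts, against 11.6 in PMSG-treated WT and 10.2 in WT oviducts. For Nrip1 they were Myo10 (0.28), a myosin of filopodia, the Wnt receptor gene Fzd5 (0.29) and Cycs (0.29), which encodes cytochrome c. For Padi1 they were Ppp2r2c (0.34), Bace2 (0.35) and Pitpnm3 (0.37). For Ltf they were Cebpd (0.21), a transcription factor of the acute phase, Serping1 (0.22), the inhibitor of complement C1, and Amot (0.23). Serping1 averaged 13.5 in PMSG-treated ESR1KO and 13.3 in ESR1KO oviducts, against 12.04 in PMSG-treated WT and 12.3 in WT oviducts. For Muc1 they were Ap3b2 (0.20), Cyp4b1 (0.26) and Ppl (0.26), which encodes periplakin of the cornified envelope. Among the 5 themselves, Ltf and Muc1 were the closest pair at 0.45, and Muc1 ranked 192nd in likeness to Ltf. Nrip1 and Padi1 were 0.71 apart and Greb1 and Padi1 0.87, whereas Greb1 and Muc1 were 3.20 apart. These are descriptions over 12 arrays of genes already listed as changed.

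**Figure D5:**
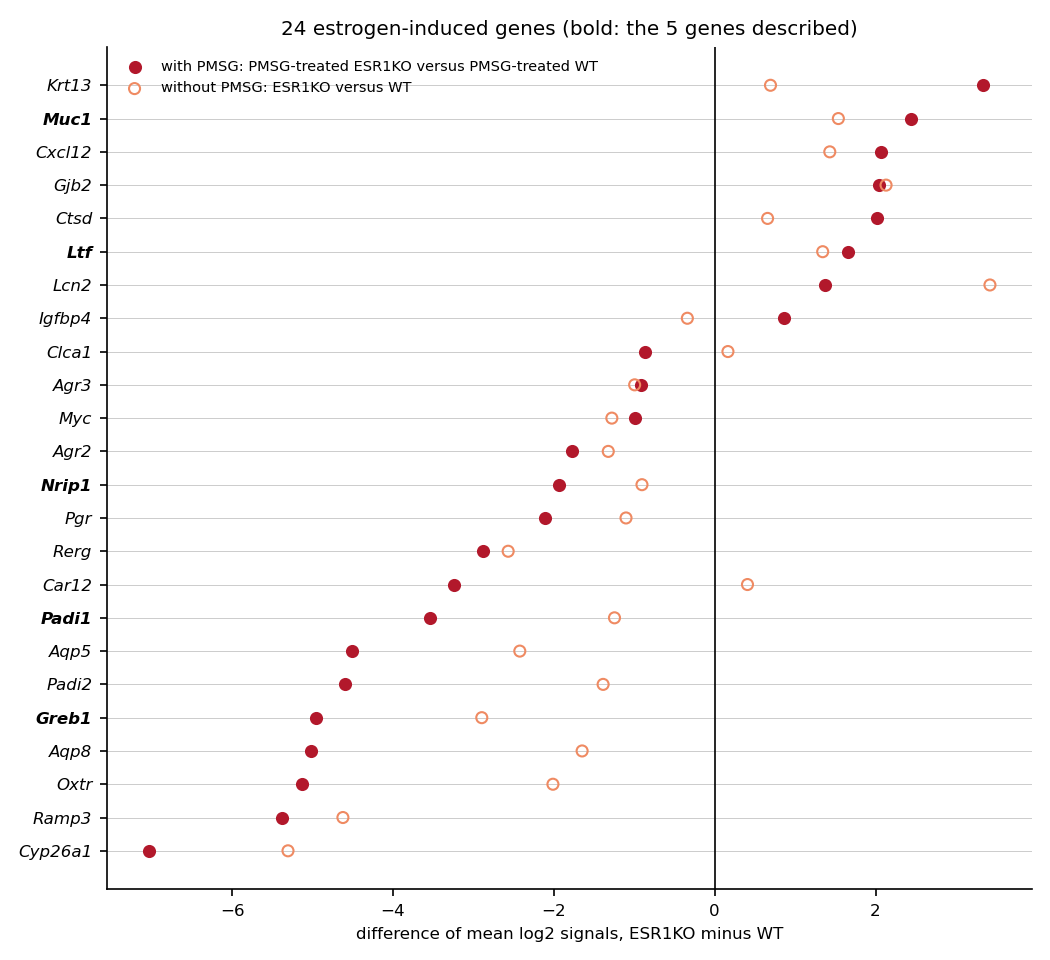
Difference of mean log2 signals, ESR1KO minus WT (horizontal axis), with PMSG (filled) and without (open), for the 24 estrogen-induced genes that could be located (vertical axis, in order of the difference with PMSG). With PMSG 16 genes lie left of 0, down to Cyp26a1 at -7.03, and 8 lie right of it, among them Muc1 and Ltf.

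The 5 genes were set beside other genes that estradiol raises in uterus, mammary gland or breast cancer cells. That list holds 50 genes, 45 of them on the array, and 24 could be located, 19 of them other than the 5. Since only genes listed as changed could be located, the shares of the 1997 located rows that were called stand beside the counts of this and the other gene lists. They were 48.3% for genotype after PMSG (28.3% higher, 20% lower), 18.1% for genotype without PMSG, 3.81% for PMSG in WT oviducts (2.7% higher, 1.1% lower) and 0.1% for PMSG in ESR1KO oviducts. Of these 19, 15 were called with PMSG, 10 as lower and 5 as higher in PMSG-treated ESR1KO oviducts, with a median difference of -1.77. Without PMSG 8 were called, 6 as lower and 2 as higher, with a median of -1.10. The medians over all 1997 located rows were 0.36 with PMSG and 0.15 without. In WT oviducts PMSG gave 6 calls among the 19, all as higher, and in ESR1KO oviducts it gave 0 in limma, where 3 of them (15.8%) had an unadjusted p under 0.05, and 2 (10.5%) in the unmoderated model, near or below the 17.4% and 17.6% of all located rows. With each array left out in turn, the numbers called among the 19 ranged from 14 to 16, 4 to 11, 2 to 7 and 0 to 0 in these 4 comparisons.

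The largest difference was in Cyp26a1, the enzyme that clears retinoic acid. It had 4.53, 3.49 and 4.47 in PMSG-treated ESR1KO oviducts, against 11.27, 11.68 and 10.64 in PMSG-treated WT oviducts, a difference of -7.03. In ESR1KO oviducts without PMSG it was 3.52, 7.81 and 3.37, against 10.15, 10.30 and 10.16 in WT oviducts. The array that stood above the other ESR1KO arrays was replicate 2, the one with the highest Esr1 signals. Ramp3, a receptor partner for adrenomedullin, fell by 5.38 in PMSG-treated ESR1KO relative to PMSG-treated WT oviducts, Oxtr, the oxytocin receptor, by 5.13, and the water channel Aqp8 by 5.02. Their means in PMSG-treated ESR1KO oviducts, 2.39, 2.79 and 3.10, were near background, so the sizes of these differences are uncertain. Pgr, the progesterone receptor, had a difference of -2.11 with PMSG and, not called, -1.10 without. The higher ones besides Ltf and Muc1 were Krt13, Cxcl12, Gjb2, Ctsd and Lcn2. Krt13, a keratin of stratified epithelium, had a difference of 3.34, Cxcl12, a chemokine, 2.07, and Ctsd, the lysosomal protease cathepsin D, 2.01. Krt13 and Gjb2 averaged 3.83 and 3.42 in PMSG-treated WT oviducts, near background, so the sizes of their differences are uncertain. The direction that Ltf and Muc1 showed was thus shared by 5 of the 15 other called genes.

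Padi2, the other peptidyl arginine deiminase that could be located of 5 on the array, had the direction of Padi1. Its log2 signal was 2.75, 2.68 and 2.60 in PMSG-treated ESR1KO oviducts, against 6.94, 7.98 and 6.91 in PMSG-treated WT oviducts, a called difference of -4.59. In WT oviducts without PMSG it had 3.06, 4.08 and 4.82, so PMSG gave a called difference of 3.29. Padi2 means of 2.68 in PMSG-treated ESR1KO, 2.60 in ESR1KO and 3.99 in WT oviducts were near background, so the sizes of its differences are uncertain. Both deiminases were therefore called in these 2 comparisons, and neither was called between ESR1KO and WT oviducts without PMSG, where the differences were -1.25 for Padi1 and -1.39 for Padi2.

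Of 26 genes of estrogen receptors and their coregulators on the array, 9 could be located and 5 were called with PMSG. Greb1, Nrip1, Esr1 and Ppargc1b were lower in PMSG-treated ESR1KO oviducts, the last by -1.32, and Ppargc1a was higher by 1.98. Ppargc1a averaged 3.21 in PMSG-treated WT oviducts, near background, so the size of its difference is uncertain. Ncoa1 and Ncoa2, which encode coactivators of the p160 family, had differences of 0.87 and 0.84 and were not called. Without PMSG, Greb1 and Esr1 were called, both lower. In the fits with 1 array left out, the Esr1 call without PMSG held in 2 of 12 fits, those without ESR1KO replicate 2 or PMSG-treated WT replicate 3.

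Of 15 mucin genes on the array 4 could be located. Muc4, like Muc1 a mucin anchored in the membrane, had 10.6 ± 0.55 in PMSG-treated ESR1KO oviducts and 7.61 ± 1.27 in PMSG-treated WT oviducts (SD, n = 3), a called difference of 3.00. Without PMSG its difference was 1.55 and, like that of Muc1 at 1.54, it was not called. PMSG gave differences of -1.46 for Muc4 and -1.19 for Muc1 in WT oviducts, neither of them called. Cd164 and Emcn had differences of 0.11 and -0.31 with PMSG and were not called, and Emcn, which is found on endothelium, was called lower in ESR1KO oviducts without PMSG at -1.57.

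Ltf was set beside other secreted antimicrobial proteins and proteins of iron handling. Of 8 antimicrobial genes located among 20 on the array, 7 were called with PMSG, 6 as higher in PMSG-treated ESR1KO oviducts. S100a8 and S100a9, the subunits of calprotectin, were the largest at 4.38 and 4.16, lysozyme genes Lyz1 and Lyz2 had 1.33 and 1.504, and Lcn2, which binds bacterial siderophores, had 1.38. S100a8 and S100a9 averaged 3.72 and 2.76 in PMSG-treated WT oviducts, near background, so the sizes of their differences are uncertain. Wfdc18 was called lower at -2.76. Lcn2 differed by more without PMSG, at 14.04 ± 0.37 in ESR1KO oviducts and 10.6 ± 0.10 in WT oviducts (SD, n = 3), a difference of 3.42. In WT oviducts PMSG gave a called difference of 1.90 for Lcn2, whereas Ltf had -0.33. Among iron handling genes, 3 of 14 on the array were located and all were called with PMSG. Cp, or ceruloplasmin, was higher at 2.63 beside Ltf, and Hp, or haptoglobin, was lower at -3.86.

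Lactotransferrin is also stored in the granules of neutrophils, so markers of these cells were read. Of 16 neutrophil markers on the array, 9 were near background in untreated ESR1KO oviducts. Among these were the granule protein genes Camp at 2.95, Ngp at 2.24, Mpo at 2.20, Elane at 2.12 and Ctsg at 2.20, and the receptor genes Cxcr2 and Csf3r. Among the 7 above it were Mmp8 at 10.01 and Fcgr3 at 8.004, beside Ltf itself. In the other groups these rows could not be read. The 5 that could be located, Ltf, Lcn2, Mmp9, S100a8 and S100a9, were all called higher with PMSG. Without Ltf, the mean of the 4 others lay between 7.72 and 9.48 on PMSG-treated ESR1KO arrays and 7.91 and 8.31 on ESR1KO arrays, against 5.57 to 6.33 on PMSG-treated WT arrays and 5.57 to 6.16 on WT arrays. They did not all move alike, since Mmp9 had a difference of -0.65 between ESR1KO and WT oviducts without PMSG and was not called. The part of neutrophils in the level of Ltf was not tested. Of 12 macrophage markers 4 could be located, namely Cd163, Csf1r, Lyz2 and Mrc1. All 4 were called higher with PMSG, and Cd163 and Mrc1 also without it. Their mean lay between 10.3 and 10.7 on PMSG-treated ESR1KO arrays and 9.46 and 10.02 on ESR1KO arrays, against 8.44 to 9.18 on PMSG-treated WT arrays and 8.47 to 8.93 on WT arrays. Within ESR1KO oviducts these markers had differences of 0.59 to 1.25 after PMSG, none of them called, where Ltf had -0.02 and Muc1 -0.28. The part of macrophages in the levels of Ltf and Muc1 was not tested.

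Of the markers of secretory epithelium only Muc1 could be located in all groups, and of those of ciliated epithelium none. In untreated ESR1KO oviducts, where all could be read by name, the 10 secretory markers were above background, with Ovgp1, the oviduct-specific glycoprotein, at 15.9, and 11 of 15 markers of ovarian follicle and corpus luteum were near background. Endothelial markers were lower in ESR1KO oviducts without PMSG, where 3 of the 4 located of 9 were called. Their mean was 5.49, 6.08 and 5.18 on ESR1KO arrays, against 7.14 to 7.61 on WT arrays. With PMSG it was 6.35 to 6.70 on PMSG-treated ESR1KO arrays, against 6.90 to 7.06 on PMSG-treated WT arrays, and 1 of the 4, Pecam1, was called. The 3 located stromal markers of 10 differed in direction. Without PMSG Lum (-2.44) and Col1a2 (-2.34) were called lower in ESR1KO oviducts and Pdgfra (1.12) higher, and with PMSG Lum (-2.10) was called lower and Pdgfra (1.49) higher. Their mean was 9.07, 9.57 and 8.53 on ESR1KO arrays, against 9.995 to 10.5 on WT arrays, and 9.67 to 9.84 on PMSG-treated ESR1KO arrays, against 10.3 to 10.4 on PMSG-treated WT arrays. The 1 located smooth muscle marker of 10, Actg2, was called lower in ESR1KO oviducts without PMSG at -2.26, and had -1.64 with PMSG, which was not called. The part of these cell types in the levels of Greb1, Nrip1 and Padi1 was not tested.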

How the data were processed

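RNA of whole mouse oviducts was hybridised to 12 Affymetrix Mouse Genome 430 2.0 arrays. The deposited values are log2 expression signals that the authors made with Partek 6.6, in which GC-RMA corrected the background, arrays were quantile normalized and the probes of each probe set were combined by median polish. Weak signals are compressed by such a correction, which makes folds against a group near background (a mean under 4) uncertain. No detection calls were used, and the number of arrays limits the precision.

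Only the columns of the 3 untreated ESR1KO arrays are in the order of the probe set names, and the other 9 have a different row order in common. Rows were located through the folds and p-values of the study's list of changed rows, used only as keys. The part of that list held here has 1997 rows, and the rest was not analysed here. All 1997 found a row within 8.76e-05 log2 units, 15 of them with more than 1 candidate. The probe set and the list shared a symbol or a synonym of it for 1896 of 1903 rows. On simulated rows 500 of 500 matches were right.

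The genotype comparison after PMSG and the PMSG comparison in WT oviducts used 45101 rows of 9 arrays, with moderated tests in limma 3.58.1 (R 4.3.3; trended prior variance; Benjamini-Hochberg adjustment). Comparisons with untreated ESR1KO oviducts were fitted on the located rows, with the variance prior taken from those 9 arrays, worth 2.87 degrees of freedom, and p-values were adjusted as if 45101 rows had been tested. This departs from 1 fit over all rows of 12 arrays, which the row order prevented. The columns of the authors' own comparisons served as keys and were not reported.

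The members and gene lists were chosen with earlier results of these data known, and no test of the 5 genes was made over the list alone. Named genes are the 5, Esr1, for each of the 5 the 3 most alike genes, and up to 4 called genes of each list, the largest difference first. Other genes were named after their values were seen. A single symbol belongs to 34958 probe sets, 932 have several and were not named, and 9211 have none. Promoter windows are those of RefSeq on GRCm38.p6, and all 5 genes matched by symbol. Alternatives were no variance trend, a repeat of the quantile normalization, a filter at a mean signal of 4, a replicate block, the methods' unmoderated model, the 6 arrays compared only, no fold minimum, group medians and each array left out. Whether replicates deviate together was checked, with correlations between -0.12 and 0.36, so the replicate numbers were not taken to pair the samples.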

Additional observations from a re-analysis of the deposited data

How the results depend on the processing

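Precision was limited by 3 arrays a group and by 1 located probe set per gene. The 20 differences of the 5 genes moved by less than the spread between arrays when quantile normalization was repeated (at most 0.04), when group medians replaced means (at most 0.51) and when 1 array was left out (at most 0.36). Signs turned in 2 of them with medians and in 5 of 120 with an array left out. The replicate block (the mean of differences within a replicate number) cannot move a difference of means in this balanced design, and replicate numbers were not shown to pair the samples. The second Greb1 row, another probe set, gave -6.01 with PMSG, against -4.96. That row was found through its fold between these same groups, so its value is no check of the first.

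Between PMSG-treated ESR1KO and PMSG-treated WT oviducts 2022 rows were called, and 1255 with the methods' unmoderated model after adjustment, 1313 with the 6 arrays compared and 3065 without a fold minimum. Leaving out an array gave 1248, without PMSG-treated ESR1KO replicate 3, to 2422. Between PMSG-treated WT and WT oviducts the count was 113, and 179 at a mean signal of at least 4, 46 with the replicate block, 36 with the 6 arrays, and 19 in the unmoderated model after adjustment or 436 at an unadjusted p under 0.01. Leaving out an array gave 41, without WT replicate 2, to 346, without PMSG-treated WT replicate 3.

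Counts with each array left out were added after the data were seen. The number of the 5 genes called was 5 in all 9 fits for genotype after PMSG, which uses 9 arrays, 1 to 4 for genotype without PMSG, 0 to 1 for PMSG in WT oviducts and 0 in all 12 for PMSG in ESR1KO oviducts. For the other 19 estrogen-induced genes it was 14 to 16, 4 to 11, 2 to 7 and 0. The 4 for genotype without PMSG arose without ESR1KO replicate 1, and the 2 for PMSG in WT oviducts without WT replicate 1 or 2. The causes were not tested. Other probe sets of Nrip1 could not be located, and Padi1, Ltf and Muc1 have 1 each.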
